A study of Saccharomyces cerevisiae with 12 samples.

Results

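The genes described here are 10 meiosis genes of budding yeast, measured in haploid cells growing vegetatively in rich medium. They are IME1 (YJR094C), IME2 (YJL106W), NDT80 (YHR124W), SPO11 (YHL022C), SPO13 (YHR014W), HOP1 (YIL072W), REC8 (YPR007C), SPR3 (YGR059W), SMK1 (YPR054W) and UME6 (YDR207C). They were taken by name, without regard to their levels, and all 10 were found among the 7127 genes counted by RNA-seq. In the coordinates of the files, which match assembly R64, the regulators lie at chrX:604569-605651 (IME1), chrX:221390-223327 (IME2), chrVIII:356561-358444 (NDT80) and chrIV:865012-867522 (UME6), and none of the 10 genes overlaps another listed gene. The study made 12 RNA libraries of strain BY4741, a laboratory haploid of mating type a in the S288C background, in 4 groups of 3. H2AZ_4KR cells carry a form of the histone variant H2A.Z named for lysine-to-arginine changes, and WT_H2AZ cells are their wild type. Ino80_K929R cells carry a form of Ino80, the ATPase of a chromatin remodelling complex, with a lysine-to-arginine change, and WT_Ino80 cells are their wild type. All 4 groups were grown in YPD, a rich glucose medium, to mid-log phase with no further treatment. Whether the mutant forms sat on plasmids or in the chromosome, and whether replicates were separate cultures, is not in the labels, so the p-values measure the spread between these libraries, which may be technical. The H2A.Z and Ino80 libraries were deposited as separate tables, so any difference between the wild types cannot be told apart from a difference between the tables.

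Meiosis in yeast is run by a cascade of transcription. IME1 encodes the master activator, which is made when diploid cells starve for nitrogen and a fermentable carbon source; Ime1 binds Ume6 at a promoter element called URS1 and turns early genes on. IME2 encodes a kinase that is itself an early gene and drives the cascade forward, and NDT80 encodes the activator of the middle genes, which it reaches through an element called the MSE. In growing cells, Ume6 recruits the Sin3-Rpd3 histone deacetylase and the Isw2 remodeller to URS1, and Sum1 with Hst1 and Rfm1 sits on many MSEs, so the same elements serve to keep meiotic genes low. In haploids, Rme1 also turns on the noncoding transcript IRT1 across the IME1 promoter.

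The elements could be read in the promoters themselves. They are shown because the repressors of the genes act through them. The 300 bases before each start codon were searched on both strands for the URS1 core GGCGGC, its longer form TCGGCGGC and the MSE words CACAAAA or CACAAAT or CGCAAAA or CGCAAAT; the longer URS1 form contains the core. Each 30-base window is printed 5′ to 3′ on the gene's own strand, with the match in capitals, from the RefSeq genome, assembly R64. The windows of the early genes SPO13 and HOP1, of REC8, of SMK1 and of UME6 itself hold URS1 letters, and those of NDT80, SPR3 and SMK1 hold MSE letters.
SPO13 URS1, chrVIII:131941-131970, plus strand: attgagaaataGCCGCCGAcaaaaaggaag
HOP1 URS1, chrIX:226419-226448, plus strand: gtttttaacctgGGCGGCtaaattgtactt
REC8 URS1, chrXVI:571546-571575, minus strand: agaacttgactTCGGCGGCaaaccaatata
SMK1 URS1, chrXVI:666117-666146, plus strand: gcgaaaaaaataGGCGGCaaaaggcgggtg
UME6 URS1, chrIV:867647-867676, minus strand: caggcggaaactGCCGCCgtcaaaaagaaa
NDT80 MSE, chrVIII:356331-356360, plus strand: aggccgtatgaCACAAAAgagtagaaaacg
NDT80 MSE, chrVIII:356464-356493, plus strand: attgccctccaTTTTGTGtcacctatttaa
SPR3 MSE, chrVII:607264-607293, plus strand: tttgttagcgaCACAAAAgagacctcgatg
SPR3 MSE, chrVII:607529-607558, plus strand: cctaaaattccTTTTGCGtcattgaatttt
SMK1 MSE, chrXVI:666189-666218, plus strand: cggcgccactaATTTGTGacacttgaacag

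The URS1 core was found in 5 of the 10 promoters, and in 311 of 5979 promoters searched across the genome, 5.2%. The longer form was found in SPO13 and REC8, and in 0.953% of all promoters. An MSE word was found in 3 of the 10 promoters and in 19.9% of all promoters. The matches began between 23 and 288 bases before the start codon. SMK1 was the member with both elements, and no word was found in this window of IME1, IME2 or SPO11. A match describes the letters and does not show that a protein is bound there.

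Depth was even, at 17253140 to 20164258 counted fragments per library. Libraries of a group correlated at a mean r of 0.952 to 0.9902 with the others of their group, and WT_Ino80 replicate 1 had the lowest value. CPM here is a gene's plain share of the library's counted fragments, without further scaling between libraries. HTZ1, the gene of H2A.Z, stood at 387 ± 62.3 CPM in H2AZ_4KR and 95.9 ± 2.88 CPM in WT_H2AZ (SD, n = 3 each). INO80 averaged 1200 ± 150 CPM in Ino80_K929R, against 150 ± 24.4 CPM in WT_Ino80. LEU2, which BY4741 lacks, averaged 138 ± 18.3 CPM in H2AZ_4KR, 145 ± 21.6 CPM in Ino80_K929R and 166 ± 14.9 CPM in WT_Ino80; it had 0 fragments in each WT_H2AZ library, which allows up to 3 fragments per library. Of the mating-type markers, the 7 a-specific genes summed to 1740 to 6520 FPKM (CPM per kilobase of gene length) in each library, and the 4 alpha-specific genes to 42.6 to 80.8 FPKM, so the a-specific sum was far above the alpha-specific sum in every library.

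All 10 genes lay below the median gene in all 4 groups, but they were not silent. Levels between genes are compared here in FPKM, as a percentage of the median over the 6047 genes matched to the reference. The median gene stood at 38.5 ± 0.369 FPKM in H2AZ_4KR, 44.1 ± 2.56 FPKM in WT_H2AZ, 42.4 ± 2.42 FPKM in Ino80_K929R and 40.8 ± 5.28 FPKM in WT_Ino80 (SD, n = 3 each). The median of the 10 genes was 18.2 ± 2.52% of that level in H2AZ_4KR, 22.1 ± 0.451% in WT_H2AZ, 23.1 ± 1.26% in Ino80_K929R and 19.1 ± 2.4% in WT_Ino80. The median thus lay between 18.2% and 23.1% in the 4 groups. Leaving UME6 out, the median of the other 9 genes was 11.4% in H2AZ_4KR, with WT_H2AZ close to that value. It was 20.3% in Ino80_K929R and 18.8% in WT_Ino80. How even the groups looked thus depended on counting UME6. The widest differences lay between single genes. In RNA from a whole culture, a low level in every cell and a higher level in a few cells cannot be told apart.

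**Figure D1:**
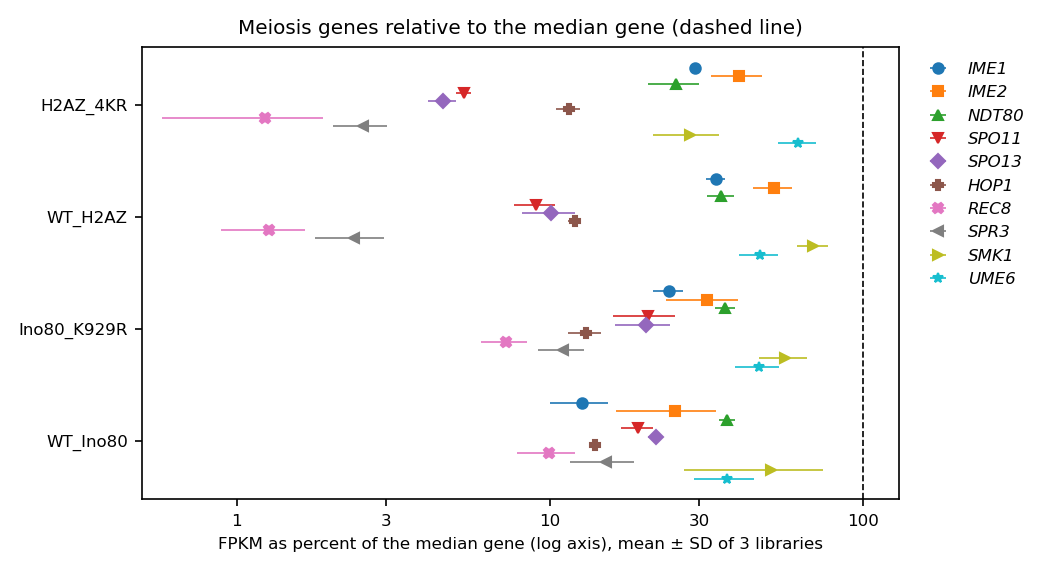
Mean level of each of the 10 genes as a percentage of the median gene (log axis), by group, with bars for the SD of 3 libraries. REC8 lies lowest, at 1.23% in H2AZ_4KR and 1.27% in WT_H2AZ against 7.25% in Ino80_K929R and 9.95% in WT_Ino80, while every value stays below 100% of the median gene.

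The depth of repression differed widely between the genes. REC8, the meiotic cohesin subunit that holds sister chromatids together, was the lowest in every group. It lay 81.3-fold below the median gene in H2AZ_4KR, 79.0-fold below in WT_H2AZ and 13.8-fold below in Ino80_K929R, and stood at 9.95% of it in WT_Ino80. SPR3, a septin of the forming spore, lay 39.6-fold below in H2AZ_4KR, 42.3-fold below in WT_H2AZ, 9.09-fold below in Ino80_K929R and 6.62-fold below in WT_Ino80. At the upper end were UME6, the repressor itself, with 62.2% of the median gene in H2AZ_4KR, and SMK1, a sporulation kinase, with 69.4% in WT_H2AZ, 56.2% in Ino80_K929R and 50.7% in WT_Ino80. Leaving UME6 out, the highest gene stood 32.8 times above the lowest in H2AZ_4KR, 54.0 times in WT_H2AZ, 7.77 times in Ino80_K929R and 5.33 times in WT_Ino80.

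The order of the levels was resolved in part in the H2A.Z table and hardly at all in the Ino80 table. In H2AZ_4KR it ran UME6, IME2, IME1, SMK1, NDT80, HOP1, SPO11, SPO13, SPR3, REC8, and only IME1 with SMK1 and SMK1 with NDT80 overlapped among the neighbours. In WT_H2AZ it ran SMK1, IME2, UME6, NDT80, IME1, HOP1, SPO13, SPO11, SPR3, REC8, with 4 of 9 neighbouring pairs overlapping. In Ino80_K929R it ran SMK1, UME6, NDT80, IME2, IME1, SPO11, SPO13, HOP1, SPR3, REC8, and 7 of 9 pairs overlapped. In WT_Ino80 it ran SMK1, UME6, NDT80, IME2, SPO13, SPO11, SPR3, HOP1, IME1, REC8, and all 9 neighbouring pairs overlapped.

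**Figure D2:**
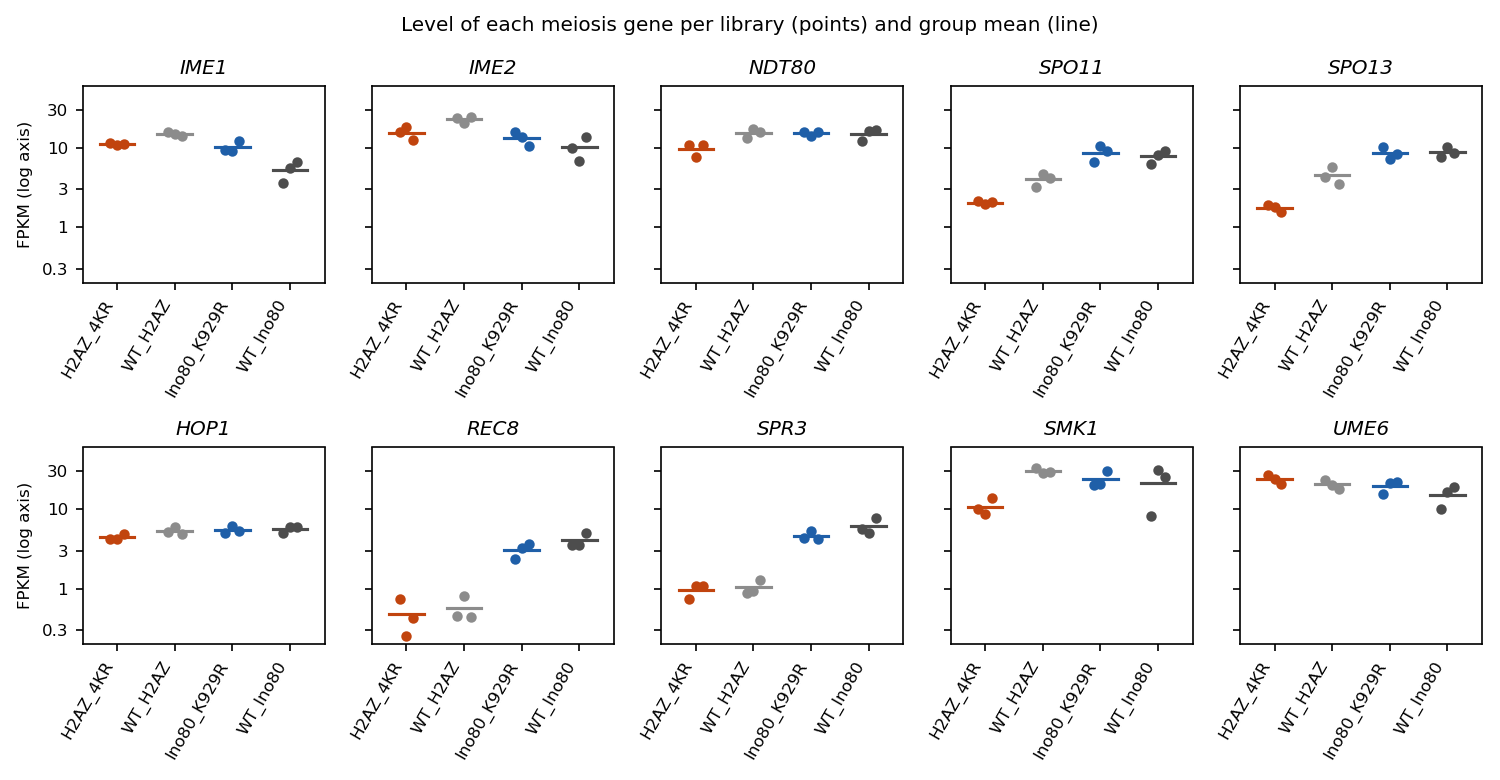
Level of each of the 10 genes in every library, in FPKM on a log axis, by group, with a bar at each group's mean. REC8 and SPR3 stay at or below 1.29 FPKM in the 6 libraries of the H2A.Z table and lie at 2.38 FPKM or more in the 6 libraries of the Ino80 table, and IME1 is lowest in WT_Ino80.

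In H2AZ_4KR cells, 3 of the 10 genes fell below their level in WT_H2AZ and none rose. SMK1, SPO13 and SPO11 were the 3. Called means both a fold change over 1.5 and an adjusted p below 0.05 in edgeR's quasi-likelihood test with Benjamini-Hochberg adjustment over all 6106 genes tested; by that rule 12.1% of all genes were called, 7.32% lower and 4.78% higher. The groups did not overlap for 6 of the 10 genes, against 44.4% of all genes, so this count is close to the background. The median log2 fold change of the 10 genes was −0.35, against −0.01 over all genes tested. Fold changes are edgeR's fitted values after TMM scaling, whereas CPM and FPKM are plain shares of the counted fragments. H2AZ_4KR also differed from WT_H2AZ in LEU2 RNA (138 ± 18.3 CPM against 0 CPM) and HTZ1 RNA (387 ± 62.3 CPM against 95.9 ± 2.88 CPM). The calls in H2AZ_4KR cannot be assigned to the lysine changes apart from these differences.

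SMK1, a kinase needed to build the spore wall and a middle gene by its timing, showed the widest gap. It had 229, 173 and 278 fragments in H2AZ_4KR, against 671, 637 and 612 fragments in WT_H2AZ. As shares of the library these were 12.6 ± 3.03 CPM in H2AZ_4KR and 35.6 ± 2.55 CPM in WT_H2AZ (SD, n = 3 each). Every H2AZ_4KR library was low and the groups lay far apart. The log2 fold change was −1.35 (SE 0.18), a 2.56-fold lower level (edgeR, adjusted p = 0.00088). The gene beside it, YPR053C, which starts 36 bases away on the other strand, was also lower in H2AZ_4KR (3.15 ± 1.17 CPM against 7.65 ± 2.26 CPM in WT_H2AZ; SD, n = 3 each; log2 fold change −1.14, edgeR adjusted p = 0.0293). Counting ignored strand, so reads reaching from one of these genes into the other cannot be told apart; SEC8, downstream of SMK1, had a log2 fold change of 0.06 (edgeR, adjusted p = 0.706).

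SPO13, which keeps sister centromeres together in the first meiotic division, had 1.66, 1.56 and 1.38 CPM in H2AZ_4KR, against 3.72, 5.01 and 3.06 CPM in WT_H2AZ. The groups did not overlap, and the gene was 2.3-fold lower in H2AZ_4KR (log2 fold change −1.20, SE 0.29; edgeR, adjusted p = 0.0148). These levels rest on 24 to 32 fragments per H2AZ_4KR library and 54 to 95 per WT_H2AZ library. Without H2AZ_4KR replicate 3 the adjusted p was 0.0523, and without WT_H2AZ replicate 2 it was 0.0707, both above the 0.05 threshold. SPO11, the enzyme that makes the DNA breaks of meiotic recombination, had 2.55, 2.32 and 2.47 CPM in H2AZ_4KR, against 3.84, 5.59 and 4.93 CPM in WT_H2AZ. It was 1.77-fold lower (log2 fold change −0.82, SE 0.26; edgeR, adjusted p = 0.0424), and the groups did not overlap. This call ended without any one of H2AZ_4KR replicates 1, 2 and 3 or WT_H2AZ replicates 2 and 3, with adjusted p between 0.0678 and 0.141. AIM17 lies 304 bases upstream of SPO11 on the same strand. It stood at 640 ± 125 CPM in H2AZ_4KR and 1060 ± 200 CPM in WT_H2AZ (SD, n = 3 each). Its log2 fold change was −0.58 (edgeR, adjusted p = 0.0264), under the fold limit. Between the wild types AIM17 was lower in WT_Ino80, at 347 ± 195 CPM, where SPO11 was higher. Whether AIM17 reads bear on SPO11 was not tested.

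The regulators of the cascade gave negative estimates in H2AZ_4KR, and none was called. NDT80 had 20.2, 14.4 and 20.2 CPM in H2AZ_4KR, against 25.3, 32.7 and 29.8 CPM in WT_H2AZ, with no overlap. Its log2 fold change of −0.53 (SE 0.16; edgeR, adjusted p = 0.0397) stayed under the fold limit. It was called when H2AZ_4KR replicate 1 was left out (−0.62, adjusted p = 0.0368) and when WT_H2AZ replicate 1 was left out (−0.62, adjusted p = 0.0338). IME2 had 30.5, 35.2 and 24.1 CPM in H2AZ_4KR, against 46.3, 39.6 and 46.6 CPM in WT_H2AZ (log2 fold change −0.42; edgeR, adjusted p = 0.0704). IME1 had 12.4, 11.8 and 12.1 CPM in H2AZ_4KR, against 16.8, 16.0 and 15.4 CPM in WT_H2AZ (log2 fold change −0.27; edgeR, adjusted p = 0.203). Neither gene's groups overlapped, and neither was called. The noncoding IRT1, which ends 284 bases upstream of IME1 on the same strand, stood at 15.3 FPKM in both H2AZ_4KR and WT_H2AZ (edgeR, adjusted p = 0.534).

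UME6 was the member with the highest estimate in H2AZ_4KR. It had 67.6, 60.7 and 51.7 CPM in H2AZ_4KR, against 58.6, 51.5 and 44.9 CPM in WT_H2AZ, and the ranges overlapped (log2 fold change 0.36; edgeR, adjusted p = 0.0759). The other 3 members gave estimates close to 0. HOP1, a protein of the meiotic chromosome axis, had a log2 fold change of −0.12 (SE 0.18), with 7.59 to 8.9 CPM in H2AZ_4KR and 8.78 to 10.8 CPM in WT_H2AZ. REC8 had 29, 9 and 15 fragments in H2AZ_4KR and 16, 31 and 16 in WT_H2AZ (−0.10, SE 0.47). SPR3 had 22, 29 and 29 fragments in H2AZ_4KR and 24, 27 and 35 in WT_H2AZ (0.04, SE 0.36). With so few fragments, differences well above these standard errors could have been missed for REC8 or SPR3. In the same comparison SPO11 only just passed (adjusted p = 0.0424, edgeR) at −0.82 with an SE of 0.26.

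**Figure D3:**
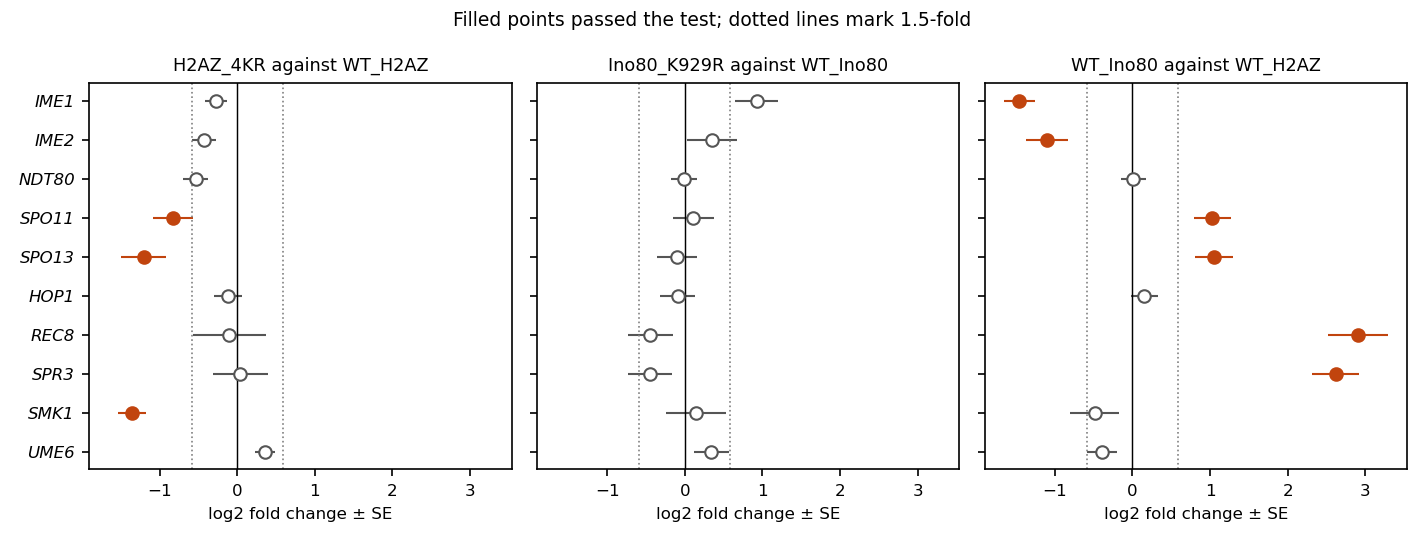
Log2 fold change of each of the 10 genes in 3 comparisons, with bars for the standard error, filled points for called genes and dotted lines at a fold change of 1.5. SMK1, SPO13 and SPO11 are called lower in H2AZ_4KR against WT_H2AZ, none is called in Ino80_K929R against WT_Ino80, and REC8 and SPR3 stand highest in WT_Ino80 against WT_H2AZ.

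In Ino80_K929R cells, none of the 10 genes passed the test against WT_Ino80. By edgeR 1 of 6161 genes was called, 0.0162%, and that gene was INO80 itself. IME1 was the 1 member at an unadjusted p below 0.05, and DESeq2 called 0 of the 10. IME1 had 10.2, 9.83 and 13.2 CPM in Ino80_K929R, against 3.87, 5.99 and 7.12 CPM in WT_Ino80. All 3 Ino80_K929R libraries were the higher ones. The log2 fold change was 0.93 (SE 0.28), with an unadjusted p = 0.00994 and an adjusted p = 0.722 by edgeR. It was the 1 gene of the 10 whose groups did not overlap, against 14.8% of all genes.

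The other members spread around 0 in this comparison. IME2 had 31.0, 26.2 and 20.3 CPM in Ino80_K929R, against 19.1, 13.2 and 26.2 CPM in WT_Ino80 (log2 fold change 0.35, SE 0.32). SMK1 had 23.8, 24.6 and 35.6 CPM in Ino80_K929R, against 9.65, 36.2 and 29.6 CPM in WT_Ino80. WT_Ino80 replicate 1 stood far below the rest for SMK1, and leaving it out turned the log2 fold change to −0.20, against 0.14 (SE 0.38) with it. REC8 and SPR3 had log2 fold changes of −0.45 (SE 0.29) and −0.45 (SE 0.28). NDT80, HOP1, SPO11 and SPO13 lay between −0.10 and 0.11, and UME6 at 0.34 (SE 0.23), with SEs of 0.17 to 0.27 over these 5 genes.

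Whether the mutants acted differently on these genes was tested as the difference of the log2 fold changes, H2AZ_4KR minus Ino80_K929R, in 1 fit of all 12 libraries. Of the 10 genes 1 was called, IME1, against 4.25% of all genes, 2.26% in the lower direction and 1.99% in the higher. Its difference was −1.20 (SE 0.28; edgeR, adjusted p = 0.0372). The call ended without any single library of H2AZ_4KR or WT_H2AZ and without Ino80_K929R replicate 1 or 2, with adjusted p of 0.0648 to 0.0924. For SMK1 the ratio of H2AZ_4KR to its wild type was 2.84-fold below that of Ino80_K929R to its own (SE 0.46 on the log2 scale; adjusted p = 0.0713) and SPO13 differed by −1.11 (SE 0.35; adjusted p = 0.0812), and neither was called by edgeR. The 7 others had adjusted p of 0.114 or more.

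The clearest differences lay between the wild types. In WT_Ino80 against WT_H2AZ, 6 of the 10 genes were called, 4 higher and 2 lower, where 32.7% of all 6235 genes tested were called, 17.7% higher and 15% lower. The groups did not overlap for the same 6 genes, against 49.7% of all genes. IME1 and IME2, at the head of the cascade, were lower in WT_Ino80, and SPO11, SPO13, REC8 and SPR3, which act further along it, were higher. The labels give both groups as BY4741 grown alike, so this contrast was not one the labels set up. LEU2 RNA averaged 166 ± 14.9 CPM in WT_Ino80 and 0 CPM in WT_H2AZ, so the 2 groups differed in more than the labels state. Strain and table cannot be told apart.

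IME1 averaged 5.66 ± 1.65 CPM in WT_Ino80, against 16.1 ± 0.721 CPM in WT_H2AZ (SD, n = 3 each). All 3 WT_Ino80 libraries were below every WT_H2AZ library, and the gene was 2.74-fold lower (log2 fold change −1.46, SE 0.20; edgeR, adjusted p = 0.00019). IME2 averaged 19.5 ± 6.55 CPM in WT_Ino80, against 44.2 ± 3.98 CPM in WT_H2AZ, 2.15-fold lower (log2 fold change −1.11, SE 0.27; edgeR, adjusted p = 0.00633). IRT1 showed no such gap, at 22.3 ± 4.52 CPM in WT_Ino80 and 22.8 ± 2.88 CPM in WT_H2AZ (log2 fold change 0.04, SE 0.19; edgeR, adjusted p = 0.878). RME1, the activator of IRT1, had a log2 fold change of −0.35 (edgeR, adjusted p = 0.0496), under the fold limit.

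REC8 and SPR3 were the widest gaps in the other direction. REC8 had 124, 135 and 191 fragments in WT_Ino80, against 16, 31 and 16 in WT_H2AZ. It was 7.5-fold higher (log2 fold change 2.91, SE 0.38; edgeR, adjusted p = 0.000151). SPR3 had 149, 146 and 217 fragments in WT_Ino80, against 24, 27 and 35 in WT_H2AZ, 6.16-fold higher (log2 fold change 2.62, SE 0.30; edgeR, adjusted p = 7.95e-05). For both genes every WT_Ino80 library lay far above every WT_H2AZ library. SPO13 reached 7.78 ± 1.18 CPM in WT_Ino80, against 3.93 ± 0.993 CPM in WT_H2AZ (log2 fold change 1.05; edgeR, adjusted p = 0.00472). SPO11 reached 9.37 ± 1.83 CPM in WT_Ino80, against 4.79 ± 0.885 CPM in WT_H2AZ (log2 fold change 1.03; edgeR, adjusted p = 0.00468). The gene downstream of REC8 on the same strand, ICL2, was also higher, at 53.2 ± 12.1 CPM in WT_Ino80 and 33.7 ± 2.73 CPM in WT_H2AZ (log2 fold change 0.76; edgeR, adjusted p = 0.0207); whether its reads bear on REC8 was not tested.

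NDT80, HOP1, SMK1 and UME6 were not called between the wild types. NDT80 had a log2 fold change of 0.01 (SE 0.16) and HOP1 of 0.16 (SE 0.18). SMK1 was at −0.49 (SE 0.32) with WT_Ino80 replicate 1 and at −0.16 without it, and UME6 was at −0.39 (SE 0.19; edgeR, adjusted p = 0.116). The same 6 genes' directions held without WT_Ino80 replicate 1, where REC8 was at 2.90, SPR3 at 2.59, SPO13 at 1.05, SPO11 at 1.08, IME2 at −1.19 and IME1 at −1.33, each at an adjusted p of 0.0112 or less by edgeR.

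**Figure D4:**
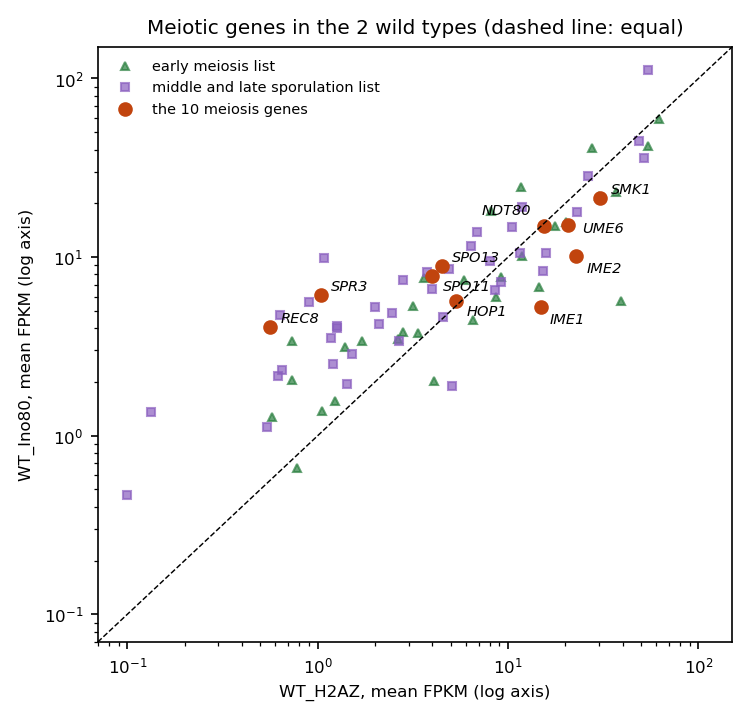
Mean FPKM in WT_Ino80 (vertical, log axis) against WT_H2AZ (horizontal, log axis) for the 10 genes and the genes of the early and the middle and late lists, with a dashed line where both are equal. REC8 and SPR3 lie far above the line, at 4.04 and 6.11 FPKM in WT_Ino80, while IME1 lies below it, at 5.23 FPKM in WT_Ino80 and 14.9 FPKM in WT_H2AZ.

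Because the wild types differ, the choice of wild type decides several directions. Set against WT_Ino80 in place of WT_H2AZ, H2AZ_4KR had 6 of the 10 genes called, 2 higher and 4 lower, where 26.2% of all genes were called, 11.2% higher and 15% lower. The groups did not overlap for 8 of the 10, against 43.9% of all genes. IME1 was then higher in H2AZ_4KR (log2 fold change 1.18; edgeR, adjusted p = 0.000801), as was UME6 (0.74; adjusted p = 0.00988). REC8 (−3.01), SPR3 (−2.59), SPO13 (−2.26) and SPO11 (−1.85) were lower, and SMK1 was not called (−0.87; adjusted p = 0.0555). SPO11 and SPO13 were thus lower in H2AZ_4KR than in either wild type. This comparison shares its H2AZ_4KR libraries with the one above and also crosses the 2 tables.

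The other genes of the pathway were read from lists, and most of them were low too. Of 30 early genes 27 lay below the median gene in H2AZ_4KR, 28 in WT_H2AZ, 29 in Ino80_K929R and 28 in WT_Ino80. SKI8, which also serves RNA decay in growing cells, was the highest in every group, at 45.4 FPKM in H2AZ_4KR, 62.4 FPKM in WT_H2AZ, 75.3 FPKM in Ino80_K929R and 59.5 FPKM in WT_Ino80. The median of 39 middle and late genes was 3.24 FPKM in H2AZ_4KR, 3.73 FPKM in WT_H2AZ, 5.07 FPKM in Ino80_K929R and 6.56 FPKM in WT_Ino80.

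In H2AZ_4KR against WT_H2AZ, 7.32% of all genes tested were lower and 4.78% higher. Of the early genes of recombination, synapsis and chromosome pairing, 28 of 30 were tested in this comparison. Of these, 4 fell and none rose, with a median log2 fold change of −0.33. DMC1, the meiotic recombinase, fell to 7.68 ± 0.913 CPM in H2AZ_4KR, against 20.2 ± 4.83 CPM in WT_H2AZ (SD, n = 3 each; log2 fold change −1.25; edgeR, adjusted p = 0.00176). MSH5, a crossover factor, had a log2 fold change of −0.84, RIM4, an RNA-binding protein of meiosis, −0.68, and HFM1, a crossover helicase, −0.61. Of the middle and late genes of spore formation, 36 of 39 were tested; 6 fell and 2 rose, with a median of −0.34. SPS2, a spore wall protein, had the lowest log2 fold change of those called, and fell to 1.55 ± 0.174 CPM in H2AZ_4KR, against 7.42 ± 1.21 CPM in WT_H2AZ (log2 fold change −2.12; edgeR, adjusted p = 0.000596), and SMA2 (−1.38), LDS2 (−1.16) and SGA1 (−1.10) followed. SPS1, a kinase encoded next to SPS2, rose to 4.78 ± 1.37 CPM in H2AZ_4KR, against 1.74 ± 0.638 CPM in WT_H2AZ (log2 fold change 1.60; edgeR, adjusted p = 0.00891), and DON1 rose by 0.61 on the log2 scale; these 2 were named after their values were seen.

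In Ino80_K929R against WT_Ino80 no gene of either list was called by edgeR, among 29 early and 38 middle and late genes tested, and the medians were 0.02 and −0.22. At an unadjusted p below 0.05 there were 0 early and 3 middle and late genes, and 380 of all genes tested; DESeq2 called 9 genes in all. Between the wild types, 17.7% of all genes tested were higher in WT_Ino80 and 15% lower. Of 38 middle and late genes 18 were higher in WT_Ino80 and 1 was lower, with a median log2 fold change of 0.95 against 0.03 over all genes. Of 30 early genes 5 were higher and 3 lower, with a median of 0.27, so the early count called is near the background. CDA1, which makes the chitosan of the spore wall, averaged 8.99 ± 1.72 CPM in WT_Ino80, against 0.979 ± 0.223 CPM in WT_H2AZ (log2 fold change 3.28; edgeR, adjusted p = 9.34e-05). SSP1, of the prospore membrane's leading edge, had a log2 fold change of 2.95, MIP6, an RNA-binding protein, 2.66, and SPR6, the most abundant gene of the list, 1.12. The early gene NDJ1, which tethers telomeres in meiosis, went the other way, at 6.01 ± 1.33 CPM in WT_Ino80 and 41.3 ± 7.58 CPM in WT_H2AZ (log2 fold change −2.71; edgeR, adjusted p = 2.6e-05). SPO22 (−1.04) and CST9 (−0.63) were lower too, and MAM1, which binds sister kinetochores together, was higher (2.26). SPO19 (−1.38) was the 1 middle gene that was lower, named after its value was seen.

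**Figure D5:**
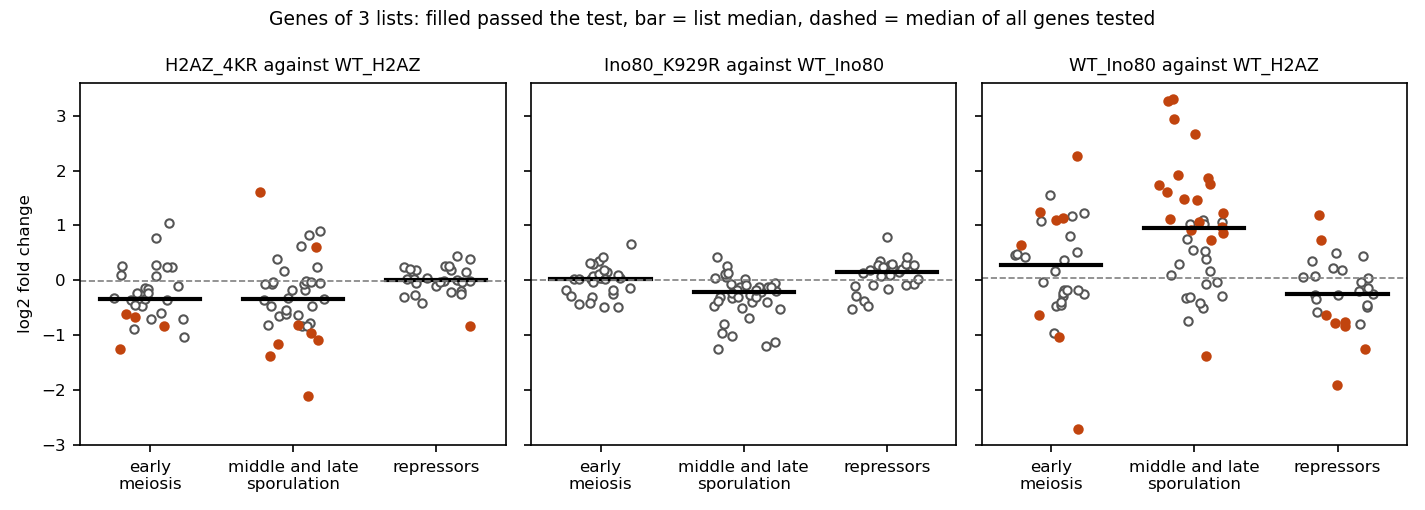
Log2 fold change of every tested gene of the early, the middle and late, and the repressor lists in 3 comparisons, with a bar at each list's median, a dashed line at the median of all genes tested and filled points for genes called. The middle and late list lies mostly above 0 in WT_Ino80 against WT_H2AZ, with a median of 0.95, and below 0 in H2AZ_4KR against WT_H2AZ, with a median of −0.34.

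Of 27 genes of the machinery that represses meiotic genes, 1 was called in H2AZ_4KR against WT_H2AZ, where 12.1% of all genes were, and it fell: XBP1, a stress-induced repressor (log2 fold change −0.83), and none was called in Ino80_K929R against WT_Ino80 by edgeR (0 had an unadjusted p below 0.05). SIN3, RPD3, UME1, SUM1, HST1 and RFM1 had log2 fold changes of −0.28 to 0.16 in H2AZ_4KR, none called. In WT_Ino80 against WT_H2AZ, 6 of the 27 were lower and 2 higher, where 15% of all genes were lower and 17.7% higher, so the count called is near the background. The 4 with the smallest adjusted p were CYC8, a corepressor subunit (−1.25), XBP1 (−1.91), SUM1, the repressor of middle genes (−0.76), and DPB4, of the Isw2 complex (1.18). SUM1 stood at 19.4 ± 3.38 FPKM in WT_Ino80 and 34.0 ± 2.5 FPKM in WT_H2AZ, and SIN3 was also lower (−0.63). SIN3 had 20.4, 37.8 and 39.4 FPKM in WT_Ino80, against 52.5, 50.7 and 52.0 FPKM in WT_H2AZ. Its estimate thus leaned on WT_Ino80 replicate 1. These were all counts of RNA, and no protein was measured.

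Of 16 tested activators of meiotic entry, 2 fell in H2AZ_4KR against WT_H2AZ, where 7.32% of all genes were lower. These were SLZ1 (−0.76), of the complex that methylates messenger RNA, and MSN4 (−0.79), a stress activator. None was called by edgeR in Ino80_K929R against WT_Ino80 (3 had an unadjusted p below 0.05). In WT_Ino80 against WT_H2AZ 2 were higher and 4 lower, where 17.7% of all genes were higher and 15% lower. Among the lower ones were MDS3 (−1.20) and SNF1, the kinase of glucose derepression (−1.02). With lists this short, such counts say little about the list as a whole. A further list held 8 genes outside meiosis taken as under URS1 control, and the URS1 core was found in 4 of their promoters. Of the 8, ACS1 fell in H2AZ_4KR (−0.94), and CAR1 (−2.27), CAR2 (−2.80) and PHR1 (−1.11) were lower in WT_Ino80 than in WT_H2AZ. CAR1 and CAR2 break down arginine and are also targets of Ume6. The other 5 of the 8 genes were not called between the wild types, and the cause of these differences was not tested. IME4, the methyltransferase of meiotic entry, was listed at 0 in every library because it lies wholly inside the antisense gene RME2 and reads over several genes were dropped, so it carries no value here.

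The mating-type genes moved between the wild types too. In WT_Ino80 against WT_H2AZ 5 of the 7 a-specific genes were lower. Of the 4 alpha-specific genes 3 were higher and 1, SAG1, was lower. SAG1 stood at 14.0 ± 8.4 FPKM in WT_Ino80 and 32.4 ± 2.8 FPKM in WT_H2AZ (SD, n = 3 each). Over all genes tested in this comparison, 17.7% were higher and 15% lower. The a-specific sum was 1740 to 2240 FPKM in WT_Ino80 and 4090 to 6520 FPKM in WT_H2AZ, and the alpha-specific sum was 68.3 to 80.8 FPKM in WT_Ino80 and 49.1 to 54.5 FPKM in WT_H2AZ. STE3, the receptor of alpha cells, stood at 9.95 ± 0.753 FPKM in WT_Ino80 and 1.76 ± 0.189 FPKM in WT_H2AZ, and none of the 4 alpha-specific genes was at 0 in any library. No a-specific or alpha-specific gene was called by edgeR in either mutant against its own wild type. Of 10 haploid-specific genes 1 was called in H2AZ_4KR against WT_H2AZ, where 4.78% of all genes were higher. It was HO, the mating-type switching endonuclease, 2.01-fold higher in H2AZ_4KR. Between the wild types 1 of the 10 haploid-specific genes was higher and 2 were lower. Their part in the differences of the meiotic genes between the wild types was not tested.

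The promoter elements did not sort the calls in a simple way. The URS1 core was in 17 of 30 early promoters and 2 of 39 middle and late promoters, and an MSE word was in 4 of 30 early and 27 of 39 middle and late promoters. Between the wild types, 13 of 26 tested middle and late genes with an MSE word were higher in WT_Ino80, and 5 of 12 without one. In H2AZ_4KR against WT_H2AZ, 2 of 15 tested early genes with the URS1 core fell, and 2 of 13 without it. Across all promoters, 12.1% of genes with the URS1 core and 7.33% of those without it fell in H2AZ_4KR against WT_H2AZ. The shares that rose were 6.23% with the core and 4.58% without it. The median log2 fold changes were close, at −0.024 with the core and −0.011 without it. The words were chosen with the values known, and these shares are descriptions.

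Across the 12 libraries the genes whose log2 CPM ran most like that of IME1 were SDC25 (Pearson r = 0.972), APM1 (0.957) and NMD5 (0.956), among 5314 genes of at least 10 CPM. For REC8 they were YMR099C (0.976), PMP2 (0.975) and NHP10 (0.974). For SPR3 they were PRO2 (0.983), snR86 (0.979) and GET4 (0.975), and for SMK1 DPB11 (0.974), COS10 (0.973) and AZR1 (0.964). SPO13 ran most like PRP11 (0.987), SPO11 like GUP2 (0.978), IME2 like TFB6 (0.959), UME6 like OST1 (0.955), NDT80 like DSS4 (0.943) and HOP1 like YER188W (0.898). The 12 points share 2 tables and 4 groups, so these values describe likeness over those groups.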

How the data were processed

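The authors deposited raw counts of fragments per gene in 2 tables of 6 libraries each. Per the file headers these counts came from featureCounts 2.0.1, which counted read pairs over exons ignoring strand and dropping pairs assigned to more than 1 gene or place; Bowtie 0.12.2 and the build sacCer3 are named in the submitters' processing notes. Of 7127 genes, 6047 matched a locus tag of assembly R64, and start and end were equal for 6038. Gene lengths are coding lengths (98.9% of matched lengths were multiples of 3).

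Each mutant was fitted with its own wild type in edgeR 4.0.16 (run in R 4.3.3: TMM scaling, quasi-likelihood test, genes kept by filterByExpr at min.count 10), and the difference between mutants and the wild-type contrast in a fit of 12 libraries. Calls needed a fold change over 1.5 as well as an adjusted p below 0.05. The code was tested on simulated counts. Alternatives were DESeq2 1.42.0, other scalings and filters, a replicate block and leaving out each library. CPM and FPKM use the library's total counted fragments. Intervals and floors cover counting error only. The members and lists were chosen with earlier results of these data known. Named were the 10 genes, up to 4 called genes of each list by adjusted p, list extremes and, for likeness, the 3 highest correlations of log2(CPM + 0.5); genes beside the members were added after their values were seen.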

Additional observations from a re-analysis of the deposited data

Results flagged for a closer look

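IME1 was called for the difference of the log2 fold changes, H2AZ_4KR minus Ino80_K929R, at −1.20 (SE 0.28, edgeR's quasi-likelihood test, Benjamini-Hochberg adjusted p = 0.0372). The call was lost in 8 of the 12 fits with 1 library left out, and with the replicate block. This contrast also crosses the H2A.Z and Ino80 tables. IME1 had a log2 fold change of −0.27 in H2AZ_4KR against WT_H2AZ (edgeR, adjusted p = 0.203). It was 0.93 in Ino80_K929R against WT_Ino80 (edgeR, adjusted p = 0.722), and neither was called. The level in WT_Ino80, 5.66 ± 1.65 CPM, was the lowest of the 4 groups, against 12.1 ± 0.305 CPM in H2AZ_4KR, 16.1 ± 0.721 CPM in WT_H2AZ and 11.1 ± 1.89 CPM in Ino80_K929R (SD, n = 3 each).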

How the results depend on the processing

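With 1 library left out, the genes called among the 10 ranged from 1 to 4 in H2AZ_4KR against WT_H2AZ and from 0 to 2 for the difference between the mutants, and stayed at 0 in Ino80_K929R against WT_Ino80 and at 6 in WT_Ino80 against WT_H2AZ. With WT_Ino80 as wild type, 6 were called in H2AZ_4KR, with IME1 at 1.18, IME2 at 0.68 and SPR3 at −2.59. For the difference between the mutants DESeq2 called 3 and the replicate block 0. Replicate numbers did not pair the libraries: same-numbered deviations correlated at 0.164, 0.21 and −0.105 in the H2A.Z table and 0.381, −0.385 and −0.132 in the Ino80 table, and 4 of 6 and 2 of 6 libraries correlated best with their own number. With the block, 2, 0 and 6 of the 10 genes were called in H2AZ_4KR, in Ino80_K929R and between the wild types, and SPO11 in H2AZ_4KR (adjusted p = 0.0601) and IME1 in the difference (0.0771) were lost. No other call of the 10 genes changed with the block.

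Total-count scaling shifted the log2 median over all genes by −0.142 in H2AZ_4KR and by −0.182 in the difference. It split the genes called in H2AZ_4KR into 138 higher and 671 lower, against 292 and 447, called NDT80 there (−0.68), and turned SPR3 in H2AZ_4KR to −0.094, NDT80 in Ino80_K929R to 0.03, UME6 in the difference to −0.16 and NDT80 between the wild types to −0.045. NDT80 between the wild types was 0 in a fit of the 6 wild-type libraries, added after the data were seen. Over all genes, 739 called in H2AZ_4KR became 1400 with no fold limit, 346 in the fit of 12 libraries and 1634 with WT_Ino80; 1 in Ino80_K929R became 9 with DESeq2 and 2 in the fit of 12; 265 in the difference became 729 with DESeq2, 32 with the block and 26 to 594 with 1 library left out. With the median taken over all listed genes, the 10 genes' median was 23.1%, 28.1%, 29.0% and 24.2% of it in H2AZ_4KR, WT_H2AZ, Ino80_K929R and WT_Ino80.

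Leaving out 1 library turned signs that lay near 0: REC8 (−0.59 to 0.20) and SPR3 (−0.065 to 0.265) in H2AZ_4KR; NDT80 (−0.071 to 0.05), SPO11 (−0.071 to 0.259) and SMK1 (−0.20 to 0.44) in Ino80_K929R; HOP1 (−0.114 to 0.072), REC8 (−0.15 to 0.65) and UME6 (−0.17 to 0.17) in the difference; and NDT80 (−0.072 to 0.063) between the wild types. Over the single-gene values and these alternatives, 579 kept direction and side of the threshold, 32 reversed, 19 lost a call and 10 gained one; the cause was not tested. Depth limits REC8 and SPR3 in the H2A.Z table, with 9 to 35 fragments per library.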
